A study of Mus musculus with 4 samples.

Results

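The 10 genes described here encode the core machinery of N6-methyladenosine (m6A), the most common internal modification of messenger RNA: the writers Mettl3, Mettl14 and Wtap, the erasers Alkbh5 and Fto, and the readers Ythdf1, Ythdf2, Ythdf3, Ythdc1 and Ythdc2. They were taken by name, after Ensembl identifiers had been matched to GENCODE M21 symbols, and all 10 were found among 25261 identifiers. RNA sequencing had been done on neural stem cells from the adult brain of C57BL/6 mice aged 8 weeks, after infection with a lentivirus. In 2 libraries (ctrl) the virus expressed a scramble hairpin RNA, and in the other 2 (shOGT) a hairpin RNA against mouse Ogt, so that cells of both groups were infected and expressed a hairpin. OGT, the product of Ogt, is the enzyme that adds O-linked N-acetylglucosamine to proteins of the nucleus and cytoplasm. Whether replicate libraries stem from different cultures is not stated, so that the p-values measure only the spread between these libraries, which may be technical.

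METTL3 is the catalytic methyltransferase, METTL14 its RNA-binding partner, and WTAP holds the pair in nuclear speckles. ALKBH5 and FTO are dioxygenases that take the methyl group off again, and proteins with a YTH domain bind the methylated base. In neural progenitors this cycle is known for its part in transcript turnover, cell cycle progression and the timing of neurogenesis.

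Values are the deposited signal per gene, which behave as read counts divided by 1 factor per library. The steps between values imply 15697508 to 17753976 reads assigned to genes per library, and mitochondrial transcripts took 3.39% to 3.63% of the total. Of 10 neural stem cell markers, 8 reached a value of 100, among them Nes, Sox2 and Vim, whereas Hes5 and Prom1 did not. All 4 astrocyte markers reached 100 and summed to 11269 to 11323 in ctrl and 10285 to 11043 in shOGT. Among them Aldh1l1 stood at 7925 and 8038 in ctrl against 7002 and 7034 in shOGT, and Gfap at 1125 and 1169 against 1185 and 1762. Neuroblast markers summed to 2539 to 2561 in ctrl and 2661 to 3035 in shOGT, nearly all of it Sox11 (2428 and 2382 against 2908 and 2500). Dcx went the other way, at 40.9 and 66.5 in ctrl against 19.1 and 29.2 in shOGT. Tubb3 overlapped between the groups (64.8 and 112 against 105 and 129), and Neurod1 was near 0 in every library. Oligodendrocyte markers summed to 183 to 191 in ctrl and 156 to 178 in shOGT. The summed markers of microglia (7.98 to 12.3), endothelium (14.0 to 35.1) and fibroblasts (10.4 to 17.0) were near 0 in every library. Those of neurons summed to 272 to 328 in ctrl and 313 to 386 in shOGT, and those of oligodendrocyte progenitors to 39259 to 39977 and 39891 to 40374, nearly all of it Olig1. The other 4 progenitor markers had lower means in shOGT: Pdgfra stood at 287 and 303 in ctrl against 132 and 137 in shOGT, and Gpr17 at 211 and 237 against 131 and 112, with Cspg4 and Sox10 lower by less. The stem cell marker Fabp7 stood at 29543 and 30451 against 20417 and 22434. The differences of Pdgfra, Gpr17 and Fabp7 are larger in proportion than those of the m6A genes, and their part in the results was not tested. Fewer cells of a type and less RNA per cell cannot be told apart in such bulk libraries.

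The targeted transcript came first. Ogt measured 4112 and 4137 in ctrl 1 and ctrl 2, and 3379 and 3516 in shOGT 1 and shOGT 2. Both shOGT libraries were lower, and the mean fell by 16.4% (limma adjusted p = 0.00876; log2 fold change -0.26 ± 0.04, SE), so that most of the transcript was still present.

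Among the 10 m6A genes, 1 fell and 0 rose at a limma adjusted p under 0.05, the fallen gene being the cytoplasmic reader Ythdf3. Its paralog Ythdf2 had the largest positive difference and did not pass. The writers and erasers differed by less than 0.10 on the log2 scale. Over all 21829 genes tested, 4.86% were called, 2.90% lower and 1.96% higher. Among the 4626 tested genes whose mean lay in the range spanned by the m6A genes (590 to 2135), 9.92% were called. A count of 1 in 10 is thus near the background. The groups did not overlap in 7 of the 10 genes, beside 49.3% of all tested genes and 62.4% of those of like level. In 5 of the 7 shOGT lay below ctrl (24.3% of all tested genes) and in 2 above (25.0%). An unadjusted p under 0.05 was reached by 3 of the 10 genes, Ythdf3, Ythdf2 and Ythdc2, beside 19.3% of all tested genes. For that p and for each direction apart, the share at like level was not computed. It was above the share of all tested genes for calls and for groups apart. The median log2 fold change of the 10 genes was -0.06 and their median absolute one 0.08. Over all tested genes these were 0.001 and 0.18, and at like level the median absolute value was 0.09.

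**Figure D1:**
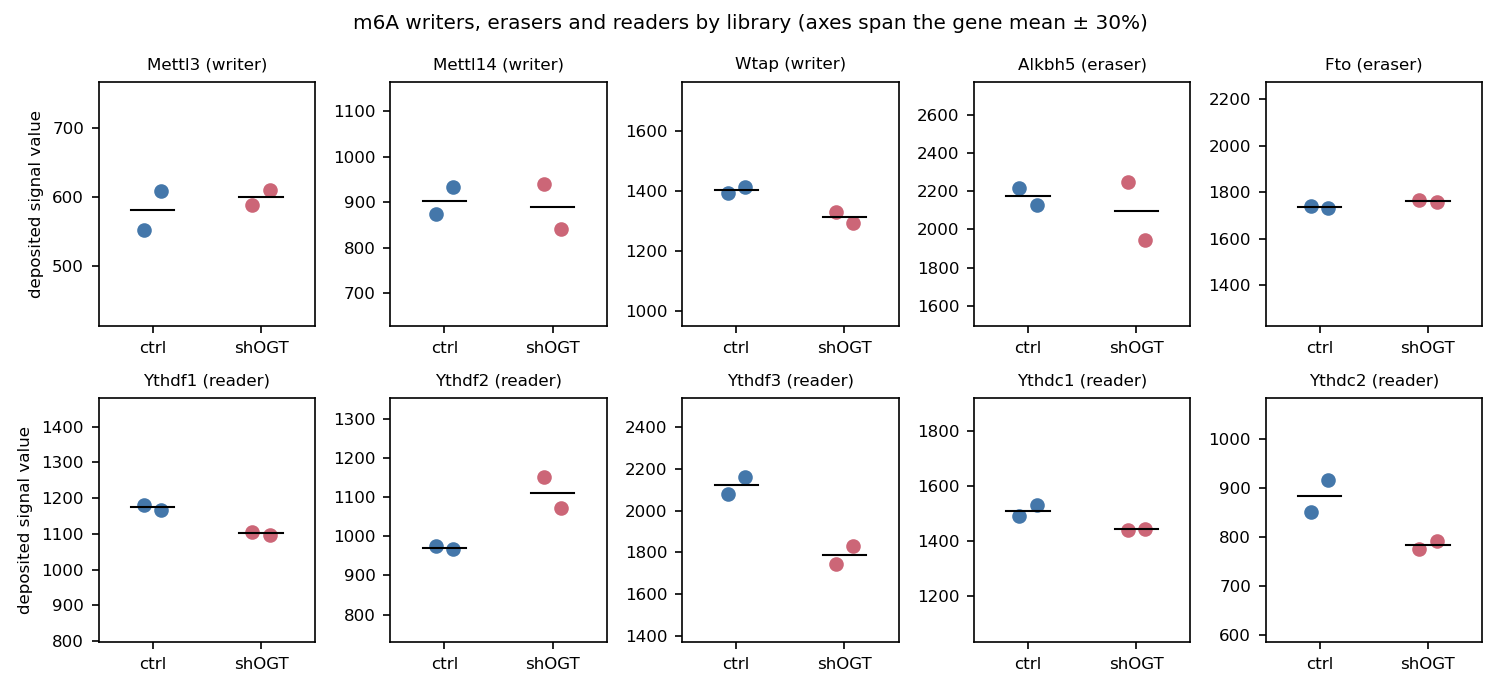
Deposited signal value (vertical axis, no unit) of each m6A gene in the 2 ctrl and 2 shOGT libraries (points), with the group mean as a bar; each axis spans the gene's mean ± 30% and does not start at 0. Ythdf3 sits at 2079 and 2162 in ctrl and at 1746 and 1829 in shOGT, while the groups of Mettl3, Mettl14 and Alkbh5 overlap.

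The 3 cytoplasmic YTHDF readers are paralogs that bind methylated transcripts, recruit deadenylation and have been tied to translation and decay. Ythdf3 (ENSMUSG00000047213, plus strand of chromosome 3 on GRCm38) measured 2079 and 2162 in ctrl against 1746 and 1829 in shOGT. Both shOGT values were below both ctrl values, and the gap between the groups exceeded the difference within either. The mean was 2121 ± 58.8 in ctrl and 1787 ± 58.7 in shOGT (SD, n = 2 each). The mean fell by 15.7% (limma adjusted p = 0.0226), which is -0.25 ± 0.05 (SE) on the log2 scale. Leaving out any 1 library kept the value between -0.28 and -0.21, but the adjusted p then lay between 0.297 and 0.365. Quantile normalization (adjusted p = 0.123), testing without a filter on low values (0.139) and a fit without the variance trend (0.375) each ended the call.

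Ythdf2 (ENSMUSG00000040025, minus strand of chromosome 4), the reader best known for sending methylated transcripts to the CCR4-NOT deadenylase, went the other way. It measured 974 and 968 in ctrl against 1150 and 1072 in shOGT. The ctrl libraries differed by 0.636% of their mean and the shOGT libraries by 7.07%, and both shOGT values lay above ctrl. The log2 fold change was 0.19 ± 0.06 (SE; 95% interval 0.06 to 0.32), and it missed the threshold (limma adjusted p = 0.10; unadjusted p = 0.00856). It passed when only genes of value 10 or more were tested (adjusted p = 0.0448).

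Ythdf1 (ENSMUSG00000038848, minus strand of chromosome 2), tied mainly to translation of methylated transcripts, measured 1182 and 1168 in ctrl against 1106 and 1098 in shOGT. The groups did not overlap, with a log2 fold change of -0.09 ± 0.05 (limma adjusted p = 0.378; 95% interval -0.21 to 0.02).

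Because Ythdf2 and Ythdf3 lay on opposite sides, their ratio within a library, which no scaling between libraries can move, was taken as well. Per kilobase of exon, Ythdf3 stood at 1.82 and 1.90 times Ythdf2 in ctrl and at 1.29 and 1.45 times in shOGT. The ratio was lower in both shOGT libraries, by 0.44 on the log2 scale. The exact 2-sided permutation test gave p = 0.333, the smallest that 2 against 2 libraries allow, and this pair was chosen after its values were seen. Of the 3 readers summed per kilobase, Ythdf2 made up 22.3% and 21.9% in ctrl and 27.6% and 25.9% in shOGT. Ythdf3 made up 40.5% and 41.7% and then 35.7% and 37.6%, and Ythdf1 36.4% to 37.2% in all 4 libraries. The summed level itself was 957 and 967 per kilobase in ctrl and 911 and 907 in shOGT.

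The paralogs differ along most of their length, though the read length is not given in the sources used here. Their coding sequences in the GENCODE M21 transcripts, 1761, 1740 and 1791 bases for Ythdf1, Ythdf2 and Ythdf3, matched at 70.4% to 71.9% of aligned bases. The longest identical stretch, shown in capitals because reads within it could come from either gene, was 22 bases and joined Ythdf1 (from coding base 790) and Ythdf2 (from coding base 724); it was 17 bases for both other pairs.

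Ythdf1 and Ythdf2, shared: ATTGCTAGCAAGCCTGCAAAAC

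A processed pseudogene, Gm8401, matches Ythdf2 at 96.3% over 1740 bases and was listed at 0 to 2.83. Another, Gm6823, matches Ythdf2 at 95.2% over 1840 bases and was not analysed here, so that its share of reads is unknown.

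The nuclear reader Ythdc1, which acts on splicing and export of methylated RNA, measured 1489 and 1529 in ctrl against 1440 and 1444 in shOGT. The shOGT values lay just below those of ctrl, with a log2 fold change of -0.07 ± 0.05 (limma adjusted p = 0.519). Exons of Ythdc1 share 631 bases with those of Gm43055, a long noncoding RNA gene on the same strand. No value of Gm43055 was analysed here, so that its share of reads is unknown. Ythdc2, an RNA helicase with a YTH domain that is best known from meiosis, measured 852 and 918 in ctrl against 776 and 792 in shOGT. Both shOGT values were lower, with means differing by -11.4%, and the log2 fold change of -0.17 ± 0.06 did not pass (limma adjusted p = 0.167; 95% interval -0.31 to -0.03). Of the 5 readers, 4 thus had lower means in shOGT and 1 a higher mean, with only Ythdf3 called.

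**Figure D2:**
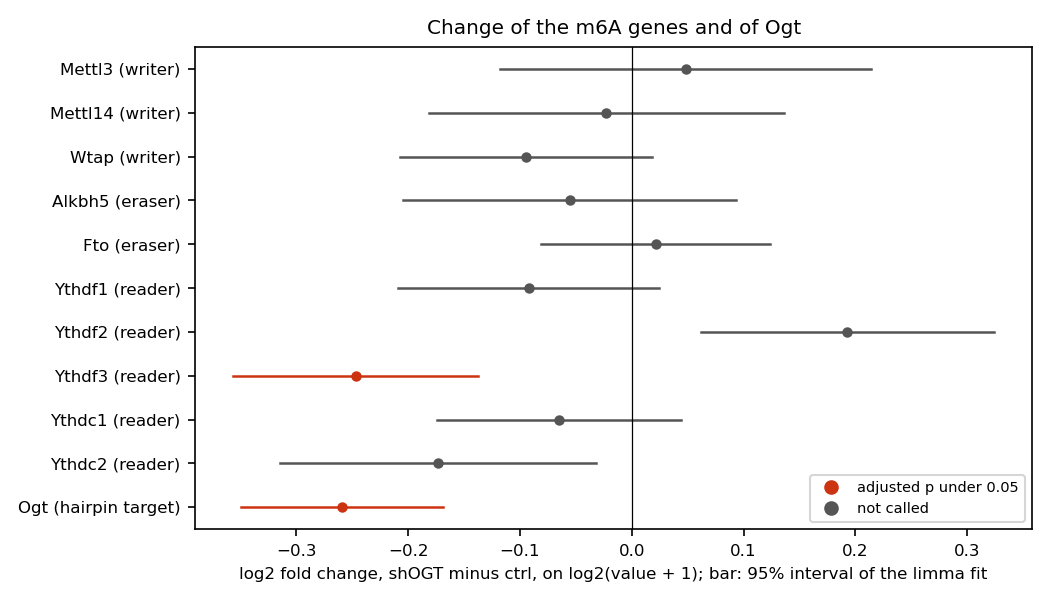
Log2 fold change of shOGT against ctrl (horizontal axis, on log2(value + 1)) for the 10 m6A genes and Ogt, with bars for the 95% interval of the limma fit; red marks an adjusted p under 0.05. Ythdf3 at -0.25 lies next to Ogt at -0.26, and Ythdf2 at 0.19 is the m6A gene farthest to the right.

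The writers showed no called difference. Mettl3 (ENSMUSG00000022160, chromosome 14) measured 552 and 609 in ctrl against 589 and 611 in shOGT, so that the groups overlapped. Its log2 fold change was 0.05 ± 0.07 (limma adjusted p = 0.787), with a 95% interval of -0.12 to 0.21. Exons of Mettl3 share 933 bases with those of Tox4 on the opposite strand, and reads there could have been counted for either gene. Mettl14 (ENSMUSG00000028114, chromosome 3) measured 874 and 933 in ctrl against 940 and 841 in shOGT, with the widest spread inside the shOGT group among the writers (11.1% of the mean). Its log2 fold change was -0.02 ± 0.07 (adjusted p = 0.909). The sign of neither gene was stable: without ctrl 1 Mettl3 was at -0.02, and without ctrl 2 or shOGT 2 Mettl14 was at 0.03 or 0.06.

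Within a library, Mettl3 stood at 0.924 and 0.954 of Mettl14 per kilobase of exon in ctrl, and at 0.916 and 1.06 in shOGT. The partners of the catalytic pair thus had like levels on this scale, and the ratio overlapped between the groups.

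Wtap (ENSMUSG00000060475, chromosome 17) measured 1392 and 1412 in ctrl against 1331 and 1294 in shOGT. Both shOGT values were lower, with a log2 fold change of -0.09 ± 0.05 (limma adjusted p = 0.344; 95% interval -0.21 to 0.02). A processed pseudogene, Gm14292, matches Wtap at 99.3% over 452 bases and was listed at 27.9 to 44.3, so that some Wtap reads could stand there. Of the other 3 processed pseudogenes that match Wtap, AC122453.2, Gm9068 and Gm7381, no value was analysed here.

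The remaining subunits of the writer complex were given as a group. VIRMA, RBM15, RBM15B, ZC3H13 and the ubiquitin ligase CBLL1 (HAKAI) scaffold the complex or guide it to its sites, and 0 of the 5 genes were called by limma (1 at an unadjusted p under 0.05). Rbm15 measured 959 and 1005 in ctrl against 1104 and 1069 in shOGT (log2 fold change 0.15 ± 0.06, adjusted p = 0.196). Rbm15b measured 1649 and 1582 in ctrl against 1763 and 1694 in shOGT (0.10 ± 0.05). Virma was at 0.04, Zc3h13 at 0.02 and Cbll1 at -0.08. The group's median was 0.04, beside 0.001 for all genes tested, and the groups were apart in 3 of the 5 genes, each with shOGT above. That count is near the 62.4% of genes with groups apart at a mean of 590 to 2135, a range that Cbll1 lies below. Over all tested genes 49.3% had groups apart, and 25.0% had shOGT above.

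The erasers were close to their ctrl values. Fto (ENSMUSG00000055932, chromosome 8) measured 1742 and 1734 in ctrl against 1768 and 1760 in shOGT. Replicates differed by 0.476% of their mean in ctrl and 0.462% in shOGT, and shOGT lay above ctrl by 1.49%. The log2 fold change was 0.02 ± 0.05 (limma adjusted p = 0.861), with a 95% interval of -0.08 to 0.12. Alkbh5 (ENSMUSG00000042650, chromosome 11) measured 2217 and 2130 in ctrl against 2248 and 1945 in shOGT, where shOGT 1 was the highest and shOGT 2 the lowest of the 4 libraries. Its log2 fold change was -0.06 ± 0.07 (adjusted p = 0.707), and leaving out shOGT 2 or shOGT 1 gave 0.05 or -0.16.

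For the genes that were not called, the width of the intervals is what the data give. On simulated libraries with 21852 genes, limma recovered 46.3% of genes changed by 0.3 on the log2 scale, 85.1% at 0.5 and 98.5% at 1. Only 200 genes were changed there, all with a mean of 100 or more, whereas 1060 genes were called in the real comparison. The spread between simulated libraries was a fixed setting, not estimated from these data, so the rates are a rough guide only. Every m6A gene differed by less than 0.3 in the real libraries, so that changes of the size seen in Ythdf2 or Ythdc2 could be missed.

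Levels of different genes were compared per length only, and their order depended on the length used. Per kilobase of all annotated exons, the ctrl means ran from 395 ± 11.0 (SD, n = 2) for Ythdf3 through 363 for Alkbh5 and 354 for Ythdf1 down to 111 for Ythdc1 and 99.6 for Ythdc2. Neighbours overlapped in ctrl between Alkbh5 and Ythdf1, between Mettl14 and Mettl3, and between Mettl3 and Ythdc1. In shOGT, Alkbh5 stood first at 350, and Ythdf3 (333) and Ythdf1 (332) followed. Per kilobase of the mRNA with the longest coding sequence, a length chosen after the data were seen, Wtap came first in ctrl at 681 and Ythdf1 followed at 517. Ythdc1 moved from rank 9 to rank 3 at 510. On both lengths Ythdc2 was last (99.6 and 123), Ythdf3 stood above Ythdf2 (395 against 212, and 430 against 235), and Mettl14 and Mettl3 held ranks 7 and 8.

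A small RNA made from a hairpin can also lower transcripts that pair with only a few of its bases, usually in the 3' UTR. In these libraries 3' UTRs with GCTATC or GTACCC were already known from earlier results to be frequent among lower genes. The m6A genes were therefore searched for both on the transcript strand. The base sequence of each hairpin was unknown, so whether GCTATC or GTACCC pairs with a hairpin RNA was not tested. In the mRNA with the longest coding sequence, 4 of the 10 genes held a site, beside 26.2% of 14875 tested genes with a 3' UTR. A site was held by 53.1% of the called lower genes and 24.1% of the called higher genes. These shares were not corrected for length, and a longer 3' UTR holds a given short sequence more often. The median 3' UTR had 945 bases over all tested genes, 1335 in the called lower and 1325 in the called higher genes. Those of the m6A genes ran from 141 (Mettl3) to 4097 (Alkbh5), and those of the 4 genes with a site from 749 (Ythdc1) to 2877 (Ythdf3). Both sequences were chosen for being frequent among lower genes of these same libraries. The 53.1% thus restates that choice and is no independent benchmark for the m6A genes. The sites are shown with 10 bases on either side, in capitals, because they set the called gene beside members that hold a site and were not called.

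Ythdf3, chr3:16214833-16214838: gagcctgattGCTATCatgaagtaaa

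Ythdc1, first, chr5:86836313-86836318: aaatactgctGCTATCaagtatgcaa

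Ythdc1, second, chr5:86836463-86836468: agaagacgttGCTATCtaatttttaa

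Ythdf2, chr4:132185806-132185811: acattgctttGTACCCaaggactaga

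Fto, chr8:91667458-91667463: attttgggagGTACCCaaaatgccaa

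Positions are on GRCm38 and mark the capitals; Ythdf2 lies on the minus strand and the others on the plus strand, each printed 5' to 3' along its transcript. Ythdf3 (-0.25) and Ythdc1 (-0.07) held GCTATC in the 3' UTR of all 3 of their coding transcripts, and Ythdf2 (0.19) held GTACCC in 1 of 3. Fto (0.02) held GTACCC in 3 of its 4 coding transcripts and GCTATC in 2 of them. Counting every coding transcript, 6 of the 10 genes held a site, with Mettl14 and Ythdf1 added. In the mRNA with the longest coding sequence, Ythdf3 and Ythdc1 held GCTATC and had lower means in shOGT. Ythdf2 and Fto held GTACCC there and had higher means. Over all coding transcripts the sites did not split by direction. Mettl14 (-0.02) held GTACCC in 2 of its 3 coding transcripts with a lower mean, and Fto held GCTATC with a higher one. Ythdf1 (-0.09) held GCTATC in 1 of its 2. The part of such sites in the difference of Ythdf3 was not tested.

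Around the 10 genes, 45 further genes of the pathway were tested, and limma called 1 higher and 0 lower (9 at an unadjusted p under 0.05, 5 of them higher). Neither count stands out from the background, where 4.86% of all tested genes were called and 19.3% reached that unadjusted p. Their median log2 fold change was 0.03. The called gene was Rida (HRSP12), which bridges YTHDF2 to an endonuclease that cuts methylated RNA. It measured 504 and 501 in ctrl against 602 and 664 in shOGT, both higher, a log2 fold change of 0.33 ± 0.07 (adjusted p = 0.0360). It passed neither without any 1 of the libraries nor with quantile normalization, without a filter or without the variance trend.

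**Figure D3:**
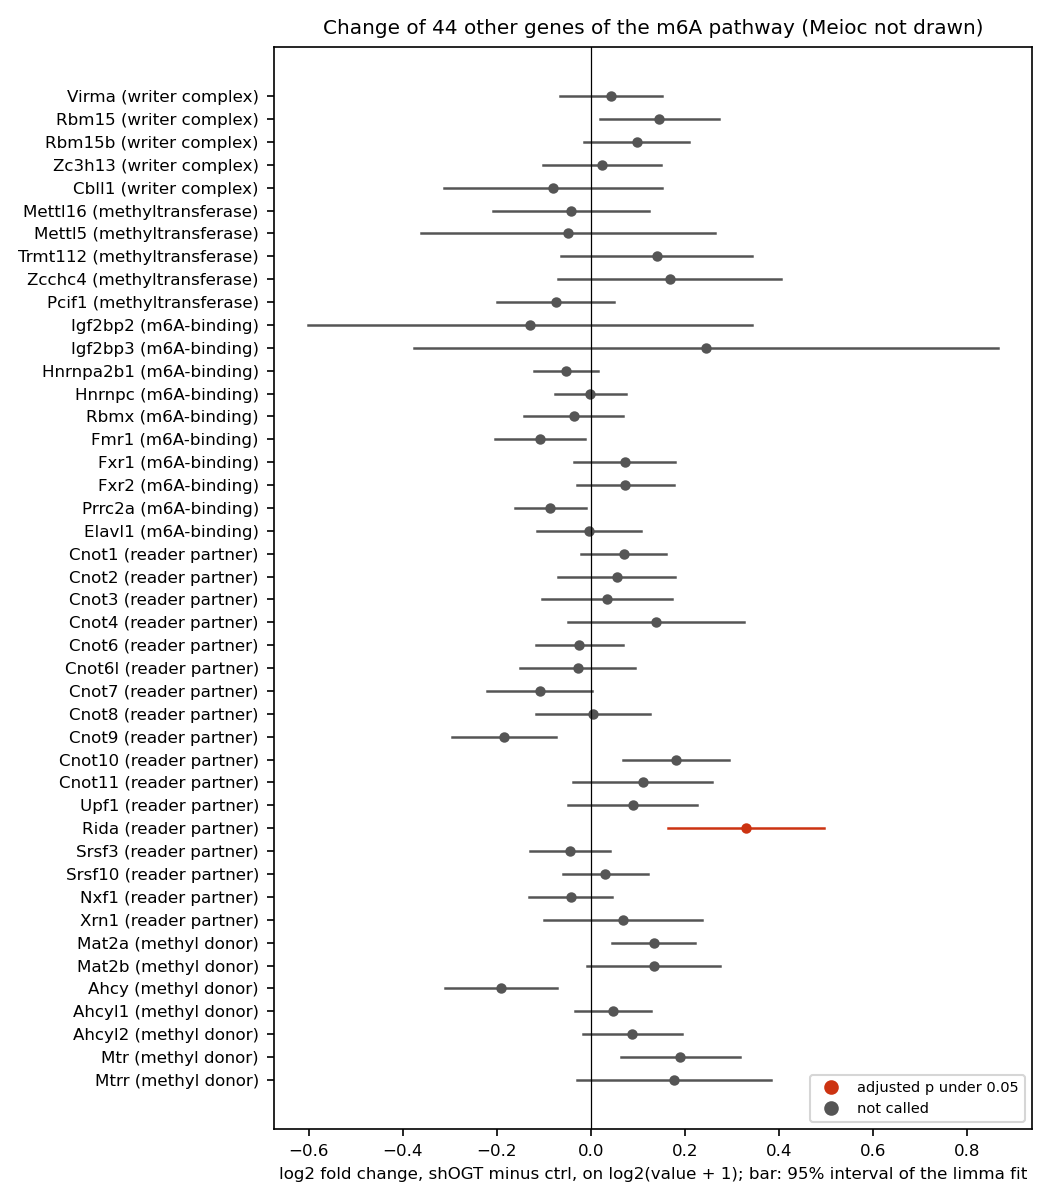
Log2 fold change of shOGT against ctrl (horizontal axis, on log2(value + 1)) with the 95% interval of the limma fit for 44 further genes of the m6A pathway, each labelled with its group. Rida at 0.33 is the called gene (red), and Cnot9 and Cnot10 lie on opposite sides of 0; Meioc, at values under 5, is not drawn.

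Of the 18 tested partners of the readers, Rida was the 1 called. Among them are 11 genes of the CCR4-NOT deadenylase, to which YTHDF2 brings methylated transcripts. Cnot9 measured 1490 and 1531 in ctrl against 1319 and 1338 in shOGT (-0.18 ± 0.05, limma adjusted p = 0.0679). Cnot10 measured 1300 and 1325 in ctrl against 1466 and 1512 in shOGT (0.18 ± 0.05, adjusted p = 0.0742). The groups were apart in both, in opposite directions; these 2 genes were named after their values were seen. The list's median was 0.03.

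Of 10 tested genes of other m6A-binding proteins, 0 were called by limma (2 at an unadjusted p under 0.05), with a median of -0.02. Prrc2a, a reader known from oligodendrocyte development, measured 11003 and 10930 in ctrl against 10516 and 10150 in shOGT (-0.09 ± 0.03, adjusted p = 0.201). Fmr1, the gene of the fragile X protein, measured 2656 and 2606 in ctrl against 2472 and 2410 in shOGT (-0.11 ± 0.04, adjusted p = 0.205). Both were lower in both shOGT libraries without passing. Igf2bp1 was not analysed here.

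A further list of 5 genes held methyltransferases that act on other adenosines or need partners outside the METTL3 complex, and the partner gene Trmt112. Of these 5 genes, 0 were called by limma (0 at an unadjusted p under 0.05), with a median of -0.04. Zcchc4, which methylates the large ribosomal RNA, was at 0.17 ± 0.11, and Trmt112, the partner of METTL5, at 0.14 ± 0.09.

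The methyl group comes from S-adenosylmethionine. Of 7 tested genes of its supply and recycling, 0 were called by limma (3 at an unadjusted p under 0.05), with a median of 0.13, and the groups were apart in 6 of the 7. Over all tested genes 19.3% reached such a p and the groups were apart in 49.3%. Among genes with a mean of 590 to 2135 they were apart in 62.4%, but some of the 7 genes, Mat2a among them, lie outside that range. Ahcy, which clears the product S-adenosylhomocysteine, measured 1501 and 1587 in ctrl against 1329 and 1374 in shOGT (-0.19 ± 0.05, adjusted p = 0.0742). Mat2a, which makes S-adenosylmethionine, measured 6119 and 6037 in ctrl against 6485 and 6858 in shOGT (0.13 ± 0.04, adjusted p = 0.0908). Ahcy was thus the lower and Mat2a the higher in shOGT, neither past the threshold. Mat1a was not analysed here.

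**Figure D4:**
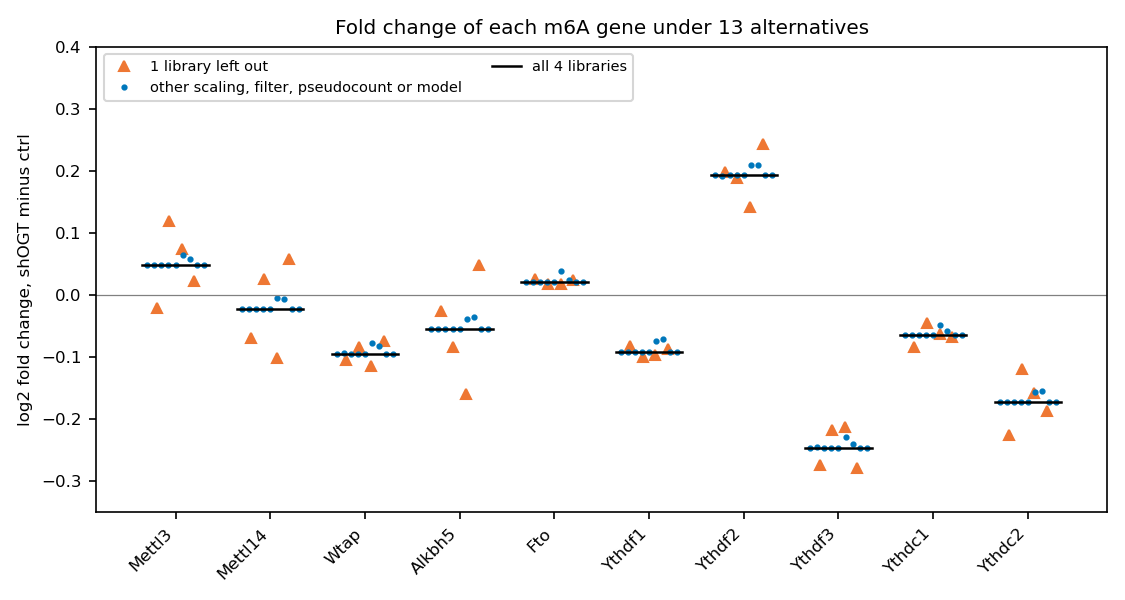
Log2 fold change of shOGT against ctrl (vertical axis) of each m6A gene with all 4 libraries (black bar), with 1 library left out (orange triangles) and under the other alternatives (blue points). Ythdf3 stays between -0.28 and -0.21 and Ythdf2 between 0.14 and 0.24, while Mettl3, Mettl14 and Alkbh5 cross 0 when a library is left out.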

How the data were processed

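Each deposited file holds the authors' normalized signal for every gene of 1 library, on mm10 per the submitters' processing notes. Aligner, counting tool, strand setting and normalization: not given in the sources used here. Every value was a whole multiple of a library-wide step (within 0.01 of a step), as when counts are divided by 1 factor. Of 25261 identifiers, 25242 matched GENCODE M21 on GRCm38. Values were used as deposited: limma 3.58.1 in R 4.3.3 with a variance trend was fitted on log2(value + 1) for the 21829 genes that reached 1 in 2 or more of the 4 libraries, which understates the change of low genes. P-values were adjusted by Benjamini-Hochberg over all genes, and calls need an adjusted p under 0.05. The fit was tested on simulated data. Named were Ogt, the 10 m6A genes, the 5 writer-complex subunits and, per further list, the called genes or, with none called, the 2 of smallest p; Cnot9, Cnot10 and the cell type markers given with values were named after these had been seen. The members and lists were chosen with earlier results of these data known. Same-numbered libraries did not deviate together (r = 0.007 over 21829 genes), and the labels do not pair them.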

Additional observations from a re-analysis of the deposited data

How the results depend on the processing

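Of the 10 m6A genes, 6 (Wtap, Fto, Ythdf1, Ythdc1, Ythdc2 and Ythdf3) kept their sign and gained no call under all 13 alternatives, though Ythdf3 lost its call in 7; Ythdf2 kept its sign and gained a call in 2. With all 4 libraries, 427 genes were called higher and 633 lower. Without a filter, with quantile normalization or without the variance trend, 0 genes were called, among them 0 m6A and 0 further pathway genes (4302, 3998 and 2763 genes at an unadjusted p under 0.05); Ogt then stood at -0.26, -0.25 and -0.26 with adjusted p of 0.115, 0.0936 and 0.349. Leaving out a library gave 0 to 0 calls for all genes, for the m6A genes and for the further pathway genes (2484 to 3389 at an unadjusted p under 0.05); the lone library of a group is then assumed to vary like the other group. Ogt ranged from -0.29 to -0.23 there. With a library left out, the log2 fold change of Mettl3 ranged from -0.022 (without ctrl 1) to 0.12, that of Mettl14 from -0.10 to 0.058 (without shOGT 2; 0.025 without ctrl 2) and that of Alkbh5 from -0.16 to 0.049 (without shOGT 2). At a minimum of 5, 756 genes were higher and 1063 lower, and 3 further pathway genes were higher (Rida, Cnot10, Mat2a) and 2 lower (Ahcy, Cnot9). At a minimum of 10 these were 822 and 1133, and 4 (Mtr added) and 2, with 1 m6A gene higher (Ythdf2). Libraries rescaled to equal totals gave 2 further pathway genes higher (Rida, Cnot10), called genes split 593 higher to 585 lower, and the same 7 m6A genes with groups apart. The cause of these shifts was not tested. With the replicate number as a replicate block, 1007 genes were higher and 1295 lower, 1 m6A gene was higher (Ythdf2, adjusted p = 0.0314), and 4 further pathway genes were higher and 2 lower; the libraries share only a number. The planned edgeR and DESeq2 fits were not run, since the values were not accepted as counts.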
